A study of Mus musculus with 8 samples.

Results

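Eosinophil granules store a small set of toxic, strongly basic proteins, and the genes described here encode that set in the mouse: the peroxidase Epx, the major basic proteins Prg2 and Prg3, and the eosinophil-associated ribonucleases Ear1, Ear2, Ear6, Ear10 and Ear14. They were chosen by symbol, with earlier results of these data known, and all 8 were found among the 38392 genes of the expression table. From these libraries the authors had already reported more granule protein and ribonuclease RNA in bone marrow. Their RNA was measured by RNA-seq in eosinophils sorted from 2 tissues of female wildtype mice of the strain given as C57/BL6, for which the labels name no treatment, with 4 libraries from bone marrow (BM_1, BM_3, BM_4 and BM_5) and 4 from small intestine (SI_6, SI_7, SI_10 and SI_11). Bone marrow cells were sorted as CD11b+, Ly6G-, Ly6C- and SiglecF+ with high side scatter, and intestinal cells as CD11b+, MHC-II- and SiglecF+ with high side scatter. Mice in the study were 6 to 14 weeks old. The comparison asked how eosinophils resident in the intestine differ from those at their site of production. Intestinal cells had been through enzymatic digestion and enrichment on CD11b beads and bone marrow cells had not, so tissue and handling cannot be told apart. The libraries held 11508002 to 21289164 reads in genes.

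As background, granule proteins are made chiefly while eosinophils mature in the bone marrow, where they are packed into crystalloid granules with a core of major basic protein and a surrounding matrix that holds the peroxidase and the ribonucleases. Mature cells release them at sites of infection or inflammation. Epx oxidises halides with hydrogen peroxide, Prg2 and its homologue Prg3 disrupt membranes, and the Ear proteins are secreted members of the ribonuclease A superfamily, a family that has expanded by gene duplication in rodents.

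Of the 8 genes, Epx, Prg2, Prg3, Ear1 and Ear2 fell from bone marrow to small intestine, by ratios of mean normalised counts between 7.24 and 23.3, and none rose. Ear6 was the exception among the 6 well-detected genes, those with a mean of at least 10 normalised counts in a tissue. Its mean was 2.69 times as high in bone marrow, but its libraries overlapped between the tissues. Prg3, Ear1 and Ear2 passed that limit in bone marrow only. They rest on 23, 34 and 24 intestinal reads, beside 136 for Ear6. Ear10 and Ear14 were hardly detected in either tissue. As a share of the transcripts of all 8 genes, Ear6 was the only one of the 6 well-detected genes whose share was higher in every intestinal library than in every bone marrow library.

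The ribonuclease genes lie on chromosome 14 in 2 clusters (GRCm38 coordinates, GENCODE M21). Ear1 (chr14:43818765-43875517, minus strand), Ear10 (chr14:43922720-43923559, minus strand) and Ear2 (chr14:44102654-44103534, plus strand) form one, and Ear14 (chr14:51203391-51204338) and Ear6 (chr14:51853699-51854643), both on the plus strand, lie in the other. The coding sequences of Ear1 and Ear2 are 95.1% identical and those of Ear2 and Ear10 97.0%, while Ear1 shares 87.3% with Ear6 and 79.8% with Ear14. This matters for the counts, since a read of 75 bases can fit more than 1 gene. The sequences below, of 75 coding bases each from GENCODE M21 transcripts, are the window in which Ear1 and Ear2 differ least (in Ear1 chr14:43819165-43819239), printed 5′ to 3′ with capitals for bases that differ from Ear1. No base differs in Ear2 or Ear10, and 8 differ in Ear6.
Ear1: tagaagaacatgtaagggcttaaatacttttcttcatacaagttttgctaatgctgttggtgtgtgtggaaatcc
Ear2: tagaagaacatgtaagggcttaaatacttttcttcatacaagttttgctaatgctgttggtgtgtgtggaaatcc
Ear10: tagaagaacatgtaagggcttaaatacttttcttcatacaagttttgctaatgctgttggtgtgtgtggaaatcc
Ear6: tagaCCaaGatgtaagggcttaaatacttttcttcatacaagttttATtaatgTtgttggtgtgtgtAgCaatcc

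The next window (in Ear1 chr14:43819240-43819314) is the one in which Ear1 and Ear2 differ most, with capitals used in the same way. It holds 7 differences from Ear1 in Ear2, 15 in Ear6 and 20 in Ear14. Ear10 has the sequence of Ear2 here, so reads of Ear2 and Ear10 cannot be told apart in this window.
Ear1: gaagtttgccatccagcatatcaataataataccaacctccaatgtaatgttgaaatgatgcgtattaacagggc
Ear2: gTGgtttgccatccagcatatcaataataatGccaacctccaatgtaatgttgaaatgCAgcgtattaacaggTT
Ear6: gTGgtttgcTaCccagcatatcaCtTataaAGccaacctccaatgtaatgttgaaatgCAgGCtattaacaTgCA
Ear14: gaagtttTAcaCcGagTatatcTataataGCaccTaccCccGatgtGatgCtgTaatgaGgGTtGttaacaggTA

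Over whole transcripts, 251 of the 639 possible 75-base windows of Ear1 (39.3%) also occurred in another gene, as did 151 of 645 in Ear2 (23.4%) and 196 of 604 in Ear10 (32.5%). The genes that shared these windows were Ear1, Ear2, Ear10 and the pseudogenes Ear-ps9 and Ear-ps2. Ear1 shared 200 of its windows with Ear-ps9, 62 with Ear10 and 53 with Ear2. The model of Ear-ps9 (chr14:43874875-43875537, minus strand) overlaps that of Ear1 on the same strand, so the 2 models may cover the same bases there. No window of Ear6, Ear14, Epx, Prg2 or Prg3 was shared. The split of reads between Ear1, Ear2 and Ear10 is therefore uncertain, since how such reads were assigned is not given in the sources used here. Little was assigned to the pseudogenes, with means of 1.63 normalised counts for Ear-ps9 and 0.697 for Ear-ps2 in bone marrow.

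Because Ear1 and Ear2 fell together, the bases before their start sites are shown with those of Ear10, Epx and Prg3 (RefSeq starts, GRCm38.p6; the last 120 bases before the start, 5′ to 3′ on the gene's strand). Capitals mark GATAA, a core that GATA factors bind. They also mark CCAAT, which NF-Y binds, and the letters TATAA of the TATA box, each on either strand. The stretches are chr14:43819640-43819759 (minus) for Ear1, chr14:44102534-44102653 (plus) for Ear2, chr14:43923597-43923716 (minus) for Ear10, chr11:87875537-87875656 (minus) for Epx and chr2:84988095-84988214 (plus) for Prg3.
Ear1: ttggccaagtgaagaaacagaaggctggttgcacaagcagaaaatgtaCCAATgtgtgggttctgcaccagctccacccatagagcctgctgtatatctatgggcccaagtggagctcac
Ear2: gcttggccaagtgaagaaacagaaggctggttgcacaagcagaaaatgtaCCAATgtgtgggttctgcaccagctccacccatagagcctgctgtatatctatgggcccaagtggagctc
Ear10: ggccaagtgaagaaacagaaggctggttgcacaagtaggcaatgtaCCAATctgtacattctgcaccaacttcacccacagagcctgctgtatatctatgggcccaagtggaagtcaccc
Epx: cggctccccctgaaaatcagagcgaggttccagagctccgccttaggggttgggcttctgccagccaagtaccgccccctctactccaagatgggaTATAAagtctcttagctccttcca
Prg3: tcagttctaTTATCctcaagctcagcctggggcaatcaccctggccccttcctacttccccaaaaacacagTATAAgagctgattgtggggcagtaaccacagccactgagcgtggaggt

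Over the full 250 upstream bases, Ear1 and Ear2 were 98.4% identical and Ear1 and Ear10 92.8%, although Ear10 was hardly detected. CCAAT occurred 3 times in each of Ear1, Ear2 and Ear10 and 1 time in Ear6, against 33.8% of 32851 mouse promoters with at least 1 match. GATAA occurred 2 times in Prg3 and 2 times in Ear14 and was not found in the other 5 genes with an entry (22.6% of promoters had it), and TATAA occurred once each in Epx, Prg3 and Ear14 (22.8%). GAGGAA, searched as a form of the motif of the factor encoded by Spi1, had no match in these 7 genes and was present in 23.3% of promoters. No matches of different motifs overlapped. For Ear6 and Ear14 the bases before the RefSeq start lie within an exon of the GENCODE model. The 2 annotations thus place the start differently, and the stretch is not printed. The printed stretch of Ear1 also lies inside its GENCODE model, outside the exons, so that model extends further upstream of the RefSeq start. The RefSeq and GENCODE starts of Ear10 differ as well.

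Epx, the eosinophil peroxidase, was found at 336, 363, 303 and 398 normalised counts in BM_1, BM_3, BM_4 and BM_5, and at 13.1, 12.5, 29.5 and 27.3 in SI_6, SI_7, SI_10 and SI_11. Normalised counts are reads scaled for library depth by the authors' size factors. The tissues did not overlap, and the highest intestinal library stayed far under the lowest bone marrow library. The gene (ENSMUSG00000052234; chr11:87864000-87875536) fell from 349.9 ± 40.2 to 20.6 ± 9.06 (mean ± SD, n = 4 each), a difference of -3.94 ± 0.29 on the deposited log2 scale (small intestine minus bone marrow, ± SE; limma adjusted p = 2.19e-05).

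Prg2, the major basic protein of the granule core, had 1925, 1644, 1417 and 2337 normalised counts in the bone marrow libraries and 116, 128, 137 and 206 in the intestinal ones. Per kilobase of exon it was the most abundant of the 8 genes in every library, and even the highest intestinal value was far from the bone marrow range. Prg2 (ENSMUSG00000027073; chr2:84980461-84983632) fell by 3.62 on the log2 scale (SE 0.26; limma adjusted p = 1.66e-05), a ratio of means of 12.5. Its level per kilobase of exon ranked 134 among 20623 protein-coding genes in bone marrow and 2797 in small intestine.

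Prg3, which encodes a second major basic protein and lies next to Prg2 (ENSMUSG00000027072; chr2:84988215-84993886), had 45.2, 35.2, 45.0 and 64.1 normalised counts in bone marrow and 8.73, 1.39, 6.56 and 9.48 in small intestine. The tissues were separate here too, although the intestinal values rest on 23 reads in all. The gene fell by 2.46 on the log2 scale (SE 0.37; limma adjusted p = 0.00107), and its coding sequence is 63.8% identical to that of Prg2.

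Ear1, a ribonuclease of the granule matrix, had 146, 187, 108 and 479.7 normalised counts in BM_1, BM_3, BM_4 and BM_5. In SI_6, SI_7, SI_10 and SI_11 it had 3.27, 1.39, 9.85 and 24.9. BM_5 stood well above the other bone marrow libraries and SI_11 above the other intestinal ones, yet the tissues remained apart. Ear1 (ENSMUSG00000072601) fell from 230.0 ± 169.5 to 9.85 ± 10.7, a difference of -4.28 ± 0.66 (limma adjusted p = 0.00111).

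Ear2, its near-identical neighbour, had 108, 149, 96.6 and 305 normalised counts in bone marrow and 1.09, 9.71, 6.56 and 11.9 in small intestine. The order of the bone marrow libraries was that of Ear1, with BM_5 highest and BM_4 lowest. Ear2 (ENSMUSG00000072596) fell from 165 ± 96.2 to 7.30 ± 4.68 (SE of the log2 difference 0.51; limma adjusted p = 4.04e-04), a ratio of means of 22.6 that rests on 24 intestinal reads.

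Ear6 (ENSMUSG00000062148), a ribonuclease with no 75-base window shared with another gene, had 86.6, 108, 33.5 and 203 normalised counts in bone marrow and 17.5, 30.5, 43.8 and 68.7 in small intestine. BM_4 lay under both SI_10 and SI_11, so the groups overlapped. The means were 108 ± 70.6 and 40.1 ± 21.9, and the difference was -1.24 ± 0.56, short of the threshold in limma (adjusted p = 0.128). Without BM_4 the difference was -1.69 (limma adjusted p = 0.0360). With BM_4 kept, Ear6 also passed with limma's trend (adjusted p = 0.0327) and under median centring (-2.14). Centring moves every gene of a library by the same amount, taken from the library median. In BM_4 only 19713 of 38392 genes had a read, so that median lies among genes of few reads. Over all alternatives the limma adjusted p ran from 6.65e-05, under median centring, to 0.294.

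Ear10 (ENSMUSG00000090166) and Ear14 (ENSMUSG00000050766) had no read in any bone marrow library. With 66511070 reads in those libraries, a count of 0 allows up to 4.51e-06% of reads, by counting error only. Ear10 had 3 reads in small intestine, in SI_6 and SI_7, and Ear14 had 1, in SI_11. No difference was detectable at this depth (limma adjusted p = 0.206 for Ear10 and 0.476 for Ear14).

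**Figure D1:**
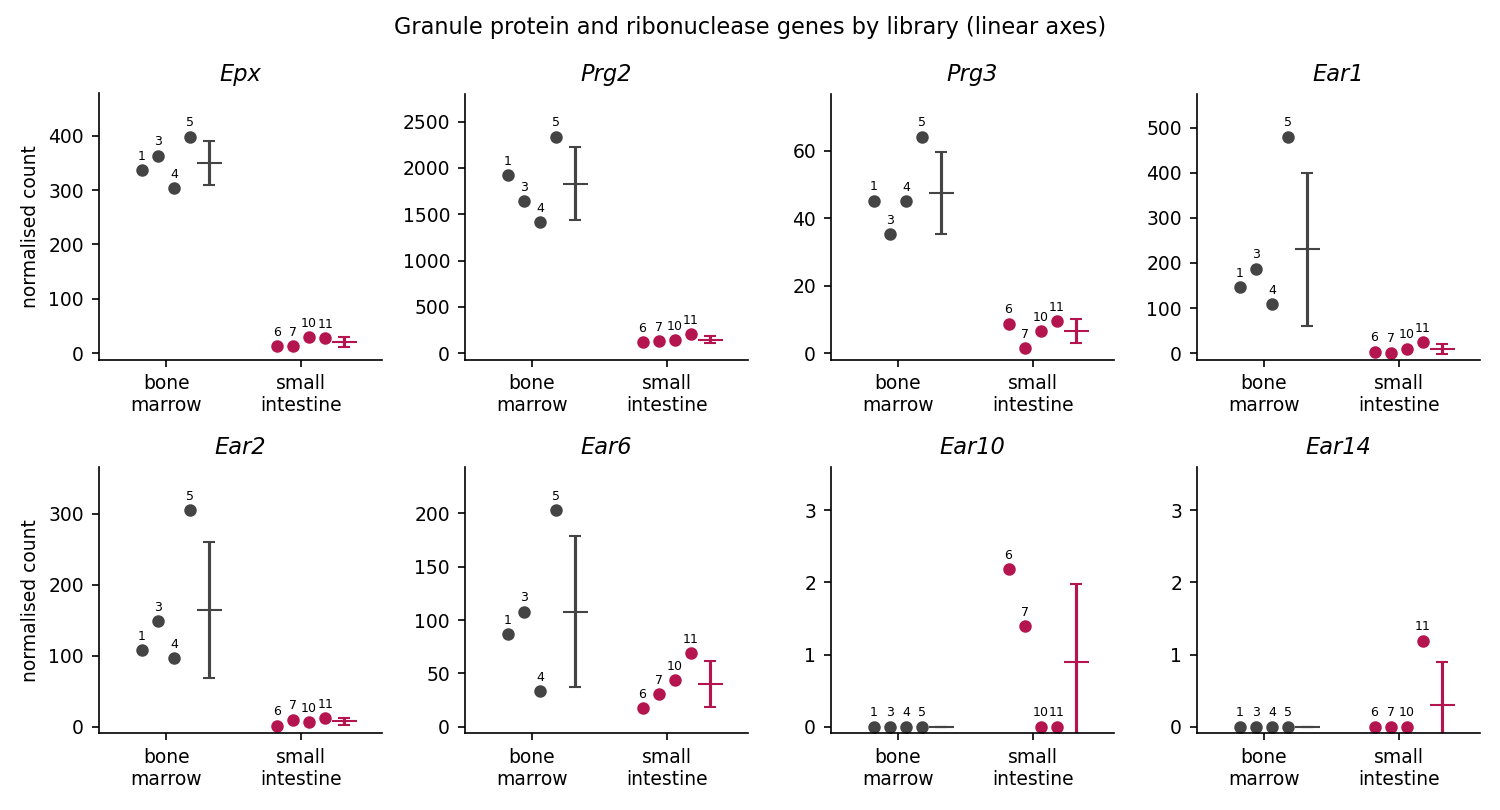
Normalised counts (linear vertical axes, 1 panel per gene) of the 8 genes in the bone marrow and small intestine libraries; points are libraries with their number, and bars give the mean ± SD (n = 4 each). The tissues are separate for Epx, Prg2, Prg3, Ear1 and Ear2 and overlap for Ear6, where BM_4 (33.5) lies under SI_10 (43.8), and Ear10 and Ear14 stay under 3 normalised counts.

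Counted together, 5 of the 8 genes were called lower and none higher, at an adjusted p under 0.05 over all genes. By limma, 34.9% of all genes in the table were called in either direction, 12.9% lower and 22.0% higher in small intestine. In 5 of the 8 every intestinal library lay below every bone marrow library, which was so for 13.9% of all genes. The median difference of the 8 genes was -3.04, and that of all genes 0.37. Centring each library on its median moved these to -3.94 and -0.53, and the share of all calls that were higher in small intestine from 63.2% to 29.5%. Centring shifts all genes of a library alike, so the distance between these 2 medians is fixed by its construction. The library medians lie among genes of few reads, since 22177 genes had a mean under 10 reads. Calls gained or lost under centring carry this limit. Of the 8, 6 had a mean of at least 10 normalised counts in a tissue. When only genes with such a mean were fitted, 5505 of 17941 (30.7%) were called lower and 7427 higher. Among them, 5 of the 6 granule genes were called lower. Of these 5, Prg3, Ear1 and Ear2 passed the limit only through bone marrow, where they were higher. The filter itself favours a difference in them, so the count is not independent of it. In bulk samples, a difference in the share of eosinophils, in either direction, cannot be told apart from a difference in RNA per eosinophil. All 11 eosinophil surface genes listed below were called higher in small intestine. The part of either difference was not tested. The labels name separate samples, and the p-values measure the spread between these.

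**Figure D2:**
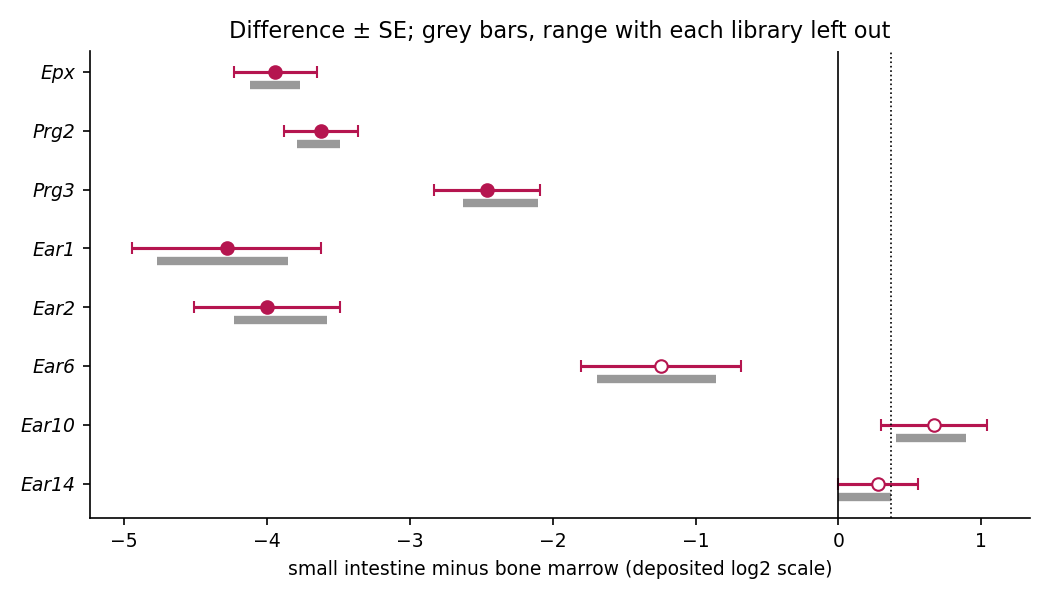
Difference between small intestine and bone marrow for each gene on the deposited log2 scale; points are limma estimates ± SE (filled, adjusted p under 0.05), grey bars the range when each library is left out in turn, the solid line no difference and the dotted line the median of all genes (0.37). The filled points lie between -4.28 and -2.46, Ear6 lies at -1.24 and the 2 hardly detected genes lie close to the dotted line.

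BM_5 was the highest bone marrow library for all 6 well-detected genes, and BM_4 the lowest for 5 of them. Among intestinal libraries SI_11 was highest for 5 of the 6 and SI_10 for Epx. For Prg3, SI_11 and SI_6 were tied at 8 reads each before scaling for depth. The summed reads of the 8 genes were 0.0156% to 0.0298% of all reads in bone marrow, with the highest value in BM_5, and 0.00104% to 0.00203% in small intestine, with the highest in SI_11. Without BM_5 the differences were -3.88 for Epx, -3.49 for Prg2, -2.31 for Prg3, -3.85 for Ear1 and -3.66 for Ear2, and all 5 stayed past the threshold in limma.

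Per kilobase of exon, bone marrow levels followed the order Prg2 (2185 ± 473 normalised counts per kb), Ear1 (315 ± 232), Ear2 (229 ± 134), Epx (128 ± 14.7), Ear6 (114 ± 74.8) and Prg3 (49.9 ± 12.8). Prg2 stood clear of the rest, whereas each later neighbour in this order overlapped the next in range. In small intestine the order was Prg2 (175 ± 48.6), Ear6 (42.5 ± 23.2), Ear1 (13.5 ± 14.6), Ear2 (10.2 ± 6.50), Epx (7.52 ± 3.31) and Prg3 (6.89 ± 3.85). Prg2 was again clear of the rest, and Ear6 lay above Ear1 in 4 of 4 libraries. The ratio of Ear6 to Ear1 per kb was 0.239 to 0.459 in bone marrow and 2.13 to 17.0 in small intestine. Reads shared by Ear1 with its copies enter this ratio, and Ear6 shares none.

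As a share of the summed level per kb of the 8 genes, Prg2 made up 73.6% ± 6.47 in bone marrow and 69.6% ± 6.50 in small intestine. Ear6 made up 3.15%, 4.23%, 1.64% and 4.99% in the bone marrow libraries and 10.3%, 15.5%, 18.5% and 18.6% in the intestinal ones. These ranges did not overlap. The shares of Ear1 (9.60% and 4.38%), Ear2 (7.23% and 3.80%), Epx (4.40% and 2.93%) and Prg3 (1.69% and 2.79%, bone marrow and small intestine) all overlapped between the tissues. Shares of 1 total move together, and the totals in small intestine rest on 133 to 295 reads per library.

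**Figure D3:**
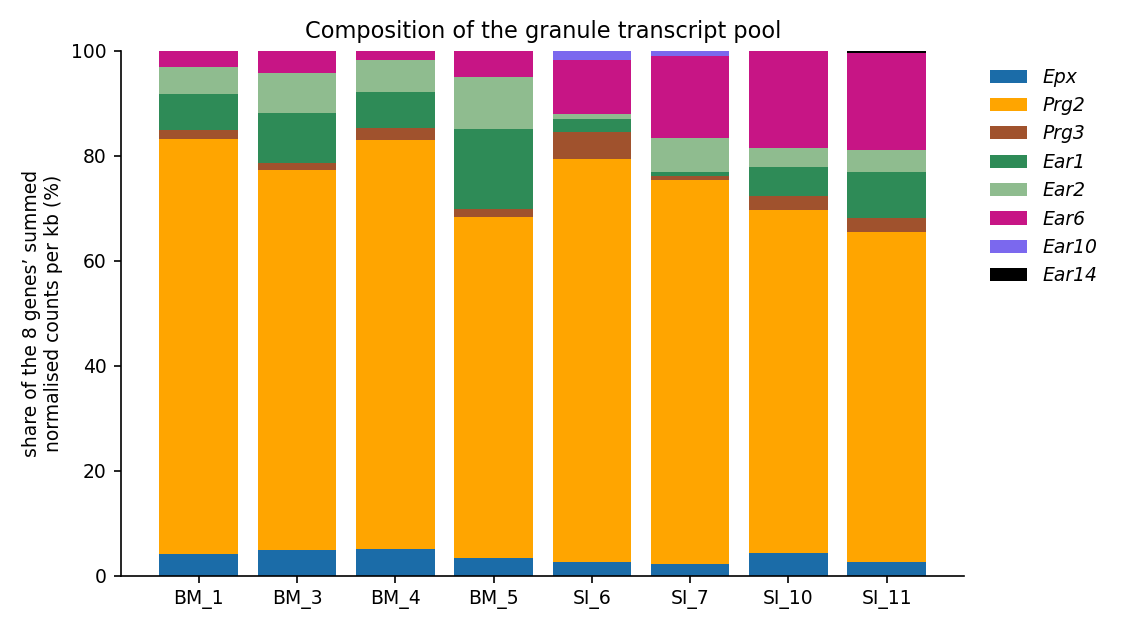
Share (%) of each gene in the summed normalised counts per kb of the 8 genes, by library, with bone marrow on the left and small intestine on the right. Prg2 fills most of every bar (63.0% to 79.0%), and the Ear6 part is 1.64% to 4.99% in bone marrow and 10.3% to 18.6% in small intestine.

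The libraries were checked against markers of eosinophils and of other cells. Siglecf, Ccr3 and Il5ra were detected in every library but at unequal levels, whereas Ptgdr2, a prostaglandin D2 receptor also among the 11 surface genes listed, was at 0 in BM_1 and BM_4. Siglecf, the surface protein used in both gates, averaged 579.9 ± 66.0 normalised counts in bone marrow and rose to 3076 ± 516 (difference 2.39 ± 0.20; limma adjusted p = 3.95e-05). Ccr3, the eotaxin receptor, rose from 70.9 ± 25.7 to 16351 ± 2623 and Il5ra, the interleukin 5 receptor, from 11.0 ± 5.31 to 1107 ± 222. All 11 surface genes listed were called higher by limma, with a median difference of 5.22. Of all genes 22.0% were called higher, and of the 17941 with a mean of at least 10 normalised counts in a tissue 7427 were. Beside Siglecf reads, Prg2 reads stood at a ratio of 2.45 to 4.78 in bone marrow and 0.0437 to 0.0540 in small intestine, and Epx reads at 0.523 to 0.814 and 0.00438 to 0.00988. Neither ratio overlapped between the tissues, with the granule genes lower and the surface genes higher in small intestine.

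Markers of neutrophil precursors were abundant in the bone marrow libraries although the gate left out Ly6G+ and Ly6C+ cells. The 12 listed genes took 3.89% to 4.61% of reads in bone marrow and 0.00822% to 0.00986% in small intestine (2-sided exact permutation test, n = 4 each, adjusted p = 0.0333 over 7 marker lists, where the smallest possible unadjusted p is 0.0286), and all 12 were called lower. Of all genes 12.9% were called lower, and of those with a mean of at least 10 normalised counts in a tissue 30.7%. Without Mpo, the myeloperoxidase of neutrophil primary granules, the list still took 2.72% to 3.55% in bone marrow. Mpo reads per Prg2 read ranged from 54.3 to 106 in bone marrow and from 0.925 to 1.43 in small intestine. Among bone marrow libraries the whole list took the smallest share in BM_4 (3.89%), where 5 of the 6 well-detected granule genes were lowest, and then in BM_5 (3.92%), where all 6 were highest. The part of these cells in the levels of the granule genes was not tested.

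Macrophage and monocyte genes took 0.0573% to 0.0748% of reads in bone marrow and 0.0159% to 0.0215% in small intestine. However, 9 of the 12 genes were called higher and 1 lower, beside 22.0% higher and 12.9% lower among all genes. The gene called lower was Ly6c2 (8268 ± 1228 and 16.7 ± 3.79 normalised counts), which encodes Ly6C, a protein that the bone marrow gate left out. Less Ly6c2, a choice made after its values were seen, the list took 0.00505% to 0.00581% in bone marrow and 0.0157% to 0.0214% in small intestine, the opposite direction. Erythroid genes took 0.00791% to 0.00963% and 6.06e-04% to 0.00120% (full lists, exact permutation test, adjusted p = 0.0333 each). Mast cell and basophil genes took 0.0383% to 0.0507% and 0.0501% to 0.106% (exact permutation test, adjusted p = 0.0571), and Mcpt4 was at 0 in bone marrow. Of these 10 genes 5 were called lower, among them Mcpt8 and Kit, and 1 higher. Among genes with a mean of at least 10 normalised counts in a tissue, 5505 of 17941 (30.7%) were called lower and 7427 higher. The listed gene called higher was Hdc, the histidine decarboxylase that makes histamine (2441 ± 298 and 11509.5 ± 3165 normalised counts). Less Hdc, again chosen after its values were seen, the list took 0.0217% to 0.0294% in bone marrow and 0.00362% to 0.0123% in small intestine. Epithelial genes reached 0.116% in SI_6, Paneth cell genes 0.178% in SI_6 and pancreatic acinar genes 0.349% in SI_7, and these 3 lists stayed under 0.001% in bone marrow (exact permutation test, adjusted p = 0.0333 each). The part of each in the granule gene results was not tested.

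More of the other ribonucleases of the family were called higher than lower in small intestine. Of 15 further genes of the ribonuclease A family with their inhibitor Rnh1, 8 were called higher in small intestine, 1 lower and 6 not, with a median difference of 1.15, beside 22.0% higher and 12.9% lower among all genes. With median centring 4 were called higher and 2 lower, beside 4285 higher and 10216 lower of all 38392 genes. A filter at a mean of 10 normalised counts in a tissue kept 8 of the 15, 7 called higher and 1 lower. Of these only Rnase12 and Rnh1 passed in both tissues. The others passed only through the tissue in which they were higher, so the filter itself favours a difference in them. The 7 include Rnh1, called with the filter (limma adjusted p = 0.00937) but not without it. Of all 17941 genes kept, 7427 were called higher and 5505 (30.7%) lower. Ang4, an antimicrobial angiogenin of Paneth cells, had 0.766, 0, 0 and 0.93 normalised counts in bone marrow and 1497, 759, 161 and 292 in SI_6, SI_7, SI_10 and SI_11 (difference 7.52 ± 0.66; limma adjusted p = 5.33e-05). SI_6 was highest, and the 6 other Paneth cell genes took 0.168%, 0.0678%, 0.0167% and 0.0225% of reads in the same order of libraries. Rnase1, the pancreatic-type ribonuclease, had at most 7.44 in bone marrow and 634, 4442, 298 and 545 in small intestine (7.61 ± 0.85; limma adjusted p = 2.03e-04). SI_7 stood out, the 8 other pancreatic acinar genes took 0.0369%, 0.321%, 0.0293% and 0.0338% of reads there, and without SI_7 the Rnase1 difference was 6.80. The part of Paneth or acinar RNA in these values was not tested.

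Rnase6, a ribonuclease of myeloid cells, rose from 8.81 ± 2.91 to 171 ± 52.3 normalised counts (3.82 ± 0.30; limma adjusted p = 2.93e-05). Rnase4 rose by 3.19 and Ang, which encodes angiogenin and whose gene model overlaps that of Rnase4 over 10860 bases, by 1.92, so reads of this pair may be split. Rnase12 rose from 12.5 ± 4.39 to 60.6 ± 19.6. Rnase10 fell by 3.24, from 23.0 ± 16.3 normalised counts to 2.19 in SI_10 and 0 in the other intestinal libraries. Rnh1, the cytosolic inhibitor that binds ribonucleases of this family, was at 727 ± 85.3 and 1060.3 ± 124, a difference of 0.54 ± 0.19 that missed the threshold (limma adjusted p = 0.0535) and was -0.36 with libraries centred on their medians. Ang and Rnase12 were not called under that centring.

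**Figure D4:**
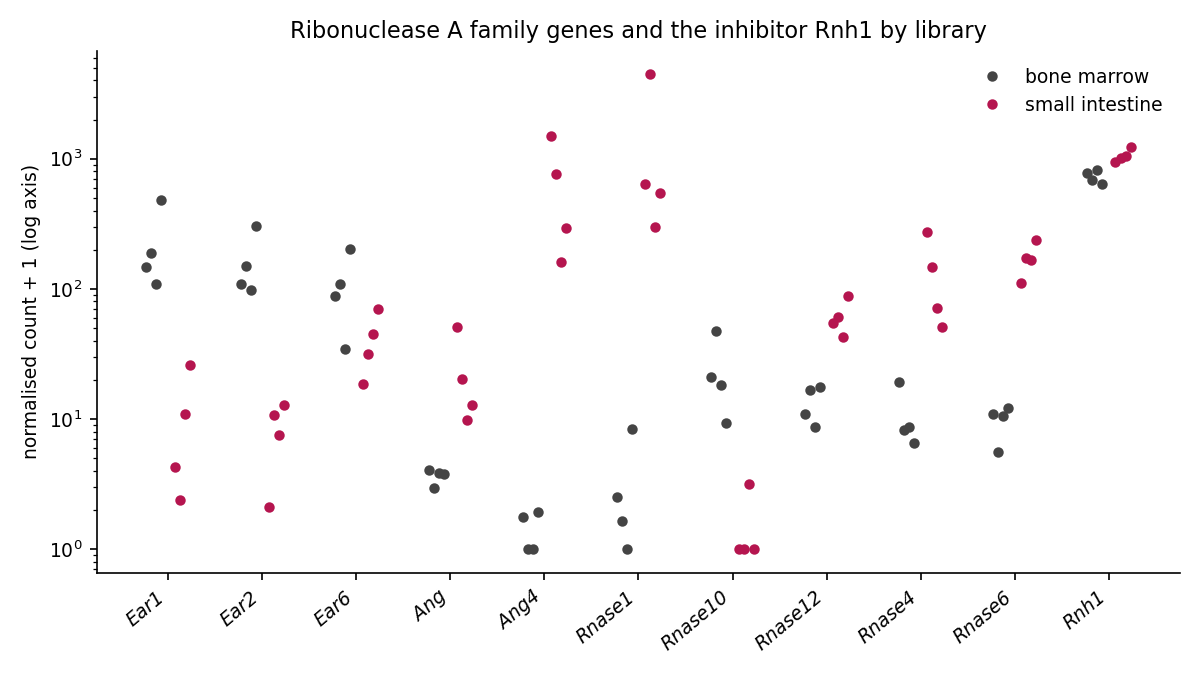
Normalised counts plus 1 (log axis) of the 3 detected Ear genes, the other ribonuclease A family genes with a mean of at least 10 normalised counts in a tissue, and the inhibitor Rnh1; each point is a library, 4 per tissue. Ear1, Ear2 and Rnase10 lie lower in small intestine, Ang4, Rnase1, Rnase4, Rnase6, Rnase12 and Ang lie higher, and the Ear6 points overlap.

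The other haem peroxidases were divided. Of 8 relatives of Epx (animal peroxidases and the cyclooxygenases), 3 were called lower, 3 higher and 2 not, with a median difference of 1.41 (12.9% lower and 22.0% higher among all genes). A mean of at least 10 normalised counts in a tissue was reached by 7. Of the 17941 genes that reached it, 5505 (30.7%) were called lower and 7427 higher. Mpo fell from 149860.3 ± 19352 to 165 ± 26.1 normalised counts (-9.80 ± 0.20; limma adjusted p = 1.01e-07), a steeper change than the -3.94 of Epx. Lpo, lactoperoxidase, fell by 4.19 (SE 0.77; limma adjusted p = 0.00291), and by 3.39 without SI_11, in which it had no read. Ptgs2, the inducible cyclooxygenase of prostaglandin synthesis, rose from 22.2 ± 3.75 to 45925 ± 11724 (10.77 ± 0.24; limma adjusted p = 1.12e-07).

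Genes for packing and releasing granules were called in both directions. Of 15 such genes in the table, 10 were called higher, 2 lower and 3 not (median difference 0.87), beside 22.0% higher and 12.9% lower among all genes. All 15 had a mean of at least 10 normalised counts in a tissue. Of the 17941 genes with such a mean, 7427 were called higher and 5505 (30.7%) lower. With libraries centred on their medians 4 of the 15 were called higher and 3 lower. Of all 38392 genes, 4285 were then called higher and 10216 lower. Srgn, the serglycin proteoglycan that binds basic granule proteins, rose from 11425 ± 1419.6 to 41906 ± 8842 normalised counts (1.86 ± 0.21; limma adjusted p = 2.37e-04). Lyst, a regulator of granule size, rose by 1.69 and Rab27b, a GTPase of granule docking, by 3.88. Rab27b had 138, 81.8, 42.7 and 36.7 normalised counts in SI_6, SI_7, SI_10 and SI_11. The epithelial list was also highest in SI_6, and the part of epithelial RNA was not tested. Cd63, a tetraspanin of the granule membrane, fell by 1.38 (SE 0.22; limma adjusted p = 0.00123) and the SNARE gene Vamp8 by 0.76. The calls of Srgn and Lyst were lost under median centring.

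Regulators of granule genes were also divided, with 5 of 10 called higher, 4 lower and 1 not (median difference 0.20), beside 22.0% higher and 12.9% lower among all genes. All 10 had a mean of at least 10 normalised counts in a tissue. Of the 17941 genes with such a mean, 7427 were called higher and 5505 (30.7%) lower, not far from the counts of the regulators. With median centring 3 of the 10 were called higher and 5 lower, beside 4285 higher and 10216 lower of all 38392 genes. Cebpa, a factor of early granulocyte development, fell from 609.7 ± 127 to 55.7 ± 29.9 normalised counts (-3.47 ± 0.36; limma adjusted p = 1.31e-04). Cebpe, needed for late granule formation, fell by 1.71 and Xbp1, needed for eosinophil development, by 1.30. Cebpe is also among the neutrophil precursor markers above. Gata1, the factor that commits cells to the eosinophil lineage, rose from 10.9 ± 4.01 to 167 ± 18.1 (3.61 ± 0.26; limma adjusted p = 1.70e-05), and Gata2 rose by 4.47. Spi1 rose by 1.02 (not called under median centring), and Trib1, a pseudokinase that restrains Cebpa protein, rose by 8.17.

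Neighbouring genes on the chromosome were called in both directions. Of the 24 nearest protein-coding genes on either side of the granule loci, 7 were called lower, 6 higher and 11 not (median difference 0.31), beside 12.9% lower and 22.0% higher among all genes. Median centring gave 9 lower and 2 higher, and quantile normalisation gave 7 lower and 4 higher. Of all 38392 genes, centring gave 10216 lower and 4285 higher, and quantile normalisation 7032 lower and 5954 higher. A filter at a mean of 10 gave 7 lower and 3 higher, beside 5505 lower and 7427 higher of 17941 genes. Rtn4rl2 and Rnase1 passed this filter in small intestine only. Of the 24, 12 had a mean of at least 10 normalised counts in a tissue. Around Epx, Mks1, a cilium gene that ends 197 bp away, was at 34.7 ± 9.28 and 51.3 ± 11.9 normalised counts (difference 0.53 ± 0.25, and -0.37 with median centring; limma adjusted p = 0.150). Lpo, at 35711 bp, and Mpo, at 59587 bp, both fell as given above. Around Prg2 and Prg3, the amino acid transporter gene Slc43a1 fell by 3.73, the purine transporter gene Slc43a3 by 3.01 and the histone chaperone gene Ssrp1 by 2.62, while Rtn4rl2 rose by 2.64 and Tnks1bp1 was not called. P2rx3, which overlaps Ssrp1 over 229 bases, fell by 1.39 (limma adjusted p = 0.0187), a call lost on leaving out BM_3, BM_4, SI_7 or SI_11. Beside the Ear clusters, Rnase1 rose by 7.61 as given above, Ndrg2 fell by 1.14 and Mettl17 rose by 1.14, a call lost with median centring. Genes that lie between members of a cluster were not counted among the 24. Of these, Ang4 (7.52) and Vmn2r89 (2.49) were called higher and Gm8113 (-1.55) lower, and the rest were not called.

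**Figure D5:**
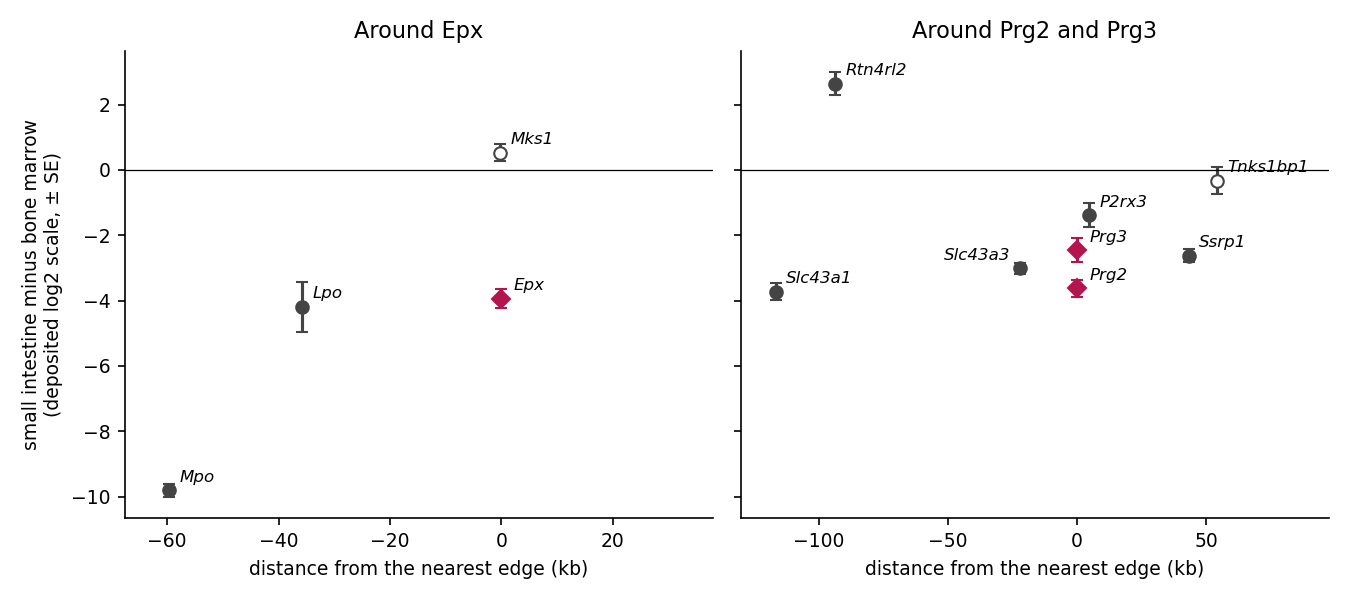
Difference between small intestine and bone marrow (deposited log2 scale, ± SE) for neighbouring genes with a mean of at least 10 normalised counts in a tissue, by distance in kb from Epx (left) and from Prg2 and Prg3 (right); diamonds are the granule genes, filled circles genes with adjusted p under 0.05 and open circles the others. Epx at -3.94 lies beside Mks1 at 0.53 and Lpo at -4.19, and Prg2 and Prg3 lie between Slc43a3 (-3.01) and P2rx3 (-1.39).

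The genes most like Epx and Prg2 over the 8 libraries were sought by Pearson correlation of the deposited values, among 14341 protein-coding genes with a mean of at least 10 normalised counts in a tissue. For Epx they included Haus6, Lrp8, G2e3 and Zbtb34 (r = 0.995 each), and for Prg2 they were Ankrd12 (r = 0.998), Ctcf, Baz1a, Syce2 and Kpna3 (r = 0.996 each). Epx and Prg2 themselves correlated at r = 0.990. All 8 points share the split between tissues, and 1409 genes (9.82%) reached r = 0.95 with Epx and 1620 (11.3%) with Prg2, so these values describe the tissue difference and little else. Ear1, Ear2 and Ear6 correlated with Prg2 at r = 0.962, 0.971 and 0.725.

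After the mean of each tissue was subtracted, the nearest genes were Piga (r = 0.978), Sema6b, Eef1aknmt, Ccdc80 and Tsc1 for Epx, and Cnot4 (r = 0.971), Adamdec1, Map4k5, Swt1 and Higd1a for Prg2. Within tissues the correlation of Prg2 was 0.880 with Ear6, 0.875 with Ear1, 0.741 with Ear2, 0.644 with Epx and 0.462 with Prg3. The 8 deviations of a gene share their libraries with those of every other gene, and the correlations are given as a description.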

How the data were processed

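RNA-seq was analysed in eosinophils sorted from bone marrow and small intestine (4 female mice each). RNA with a RIN of at least 7 was amplified to cDNA and sequenced from a single end. The authors counted reads per gene on GRCm38 (nf-core/rnaseq, Ensembl annotation) and deposited variance-stabilised log2 values made with DESeq2 in R 4.0.3. Neither the aligner nor the strand setting is given in the sources used here. Column names match tissues but not single samples, so libraries are named by column.

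The transformation was inverted from the shared lowest value. With size factors of 0.721 to 1.53 this gave whole reads within 0.05 for 100.0% of values, with totals of 11508002 to 21289164 reads in genes. These reads, divided by size factors, are the normalised counts. Intervals and limits cover counting error only.

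Tissues were compared with limma 3.58.1 (R 4.3.3) on the deposited log2 values of all 38392 genes, without filter or covariate, with Benjamini-Hochberg adjustment and a 2-sided threshold of 0.05. limma took the place of the authors' DESeq2 model because the deposited unit is log2. The script was tested on simulated data. Marker shares of reads were compared with exact permutation tests over 70 assignments. Positions and exon lengths came from GENCODE M21. Python 3.11.15 was used for the other steps. No pair of libraries agreed within counting noise.

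The 8 genes and all lists were chosen with earlier results of these data known. Named beside them were the 2 most abundant members and largest called changes of each list, ribonuclease A genes and neighbours with a mean of at least 10 normalised counts, and the 5 genes most correlated with Epx and with Prg2, of which 1 is not reported here. The limit of 10 for neighbours was added in the analysis, and Siglecf, Il5ra, Gata1, Gata2, Cebpe, Xbp1 and Vamp8 were named after their values were seen. Alternatives were median centring, quantile normalisation, voom on the recovered reads, pseudocounts of 1 and 5, a filter at a mean of 10, limma with a trend, leaving out each library, and marker shares without ribosomal RNA. Marker lists less 1 gene were added after seeing the data, and Ptgdr2, Ly6c2, Hdc, Mcpt8 and Kit were named then too.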

Additional observations from a re-analysis of the deposited data

Results flagged for a closer look

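Among 86 groups of 4 libraries examined for the genes named and the marker lists, 7 had a library set apart from the other 3 by more than Dixon's 95% critical value (gap to the nearest library over the range), where chance gives about 1 in 20. Ear14 was set apart in SI_11 (1.0), the only library with a read of it, and the ribonuclease gene Rnase10 in SI_10 (1.0), the only intestinal library with reads. Rtn4rl2, a neighbour of Prg2, was set apart in BM_3 (1.0), again the only bone marrow library with reads. In these groups the other libraries were tied without a read, so the ratio is 1.0 by construction and the rate of 1 in 20 does not apply. The regulator Trib1 was high in BM_5 (0.95), the library in which the granule genes were highest, and Ndrg2, a neighbour of Ear6, was high in SI_6 (0.904). The pancreatic acinar list, which includes Rnase1, was high in SI_7 (0.970), and the erythroid list was low in BM_3 (0.93).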

How the results depend on the processing

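Epx, Prg2, Prg3, Ear1 and Ear2 kept their direction and their call under all 15 alternatives, with differences from -4.84 to -3.77, -4.52 to -3.49, -3.36 to -2.10, -5.18 to -3.85 and -4.90 to -3.58. Ear6 was called under median centring (-2.14), with limma's trend (adjusted p = 0.0327) and without BM_4; the cause was not tested. Median centring reversed the uncalled differences of Ear10 (-0.23), Ear14 (-0.62), Rnh1 (-0.36) and Mks1 (-0.37), quantile normalisation that of Mks1 (-0.04), and median centring left 7 packaging and release genes called; it shifts the median of all genes by construction. Of 553 pairs of named gene and alternative, 12 lost a call, 13 gained one and 5 reversed. Rnh1 passed the threshold under several alternatives, at p-values down to 0.00248 in limma with a trend.

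Leaving out 1 library gave 5 to 6 granule genes called, 7 to 9 of the other ribonuclease family, 6 to 7 peroxidases, 10 to 12 packaging and release genes, 8 to 10 regulators, 11 surface genes, 11 to 13 neighbours and 10982 to 14670 genes in all. With a library left out the exact permutation test cannot go below 0.0571, so no marker list could pass. The differences in percent of reads were then -4.27 to -4.03 for neutrophil precursor genes, -0.0530 to -0.0472 for macrophage and monocyte genes, 0.0275 (without SI_6) to 0.0600 for epithelial, 0.0380 (without SI_6) to 0.0914 for Paneth cell, 0.0361 (without SI_7) to 0.142 for pancreatic acinar and -0.00862 to -0.00805 for erythroid genes. Chosen after seeing the data, the macrophage and monocyte list less Ly6c2 (0.0121) and the mast cell and basophil list less Hdc (-0.0173) reversed, while the neutrophil precursor, Paneth cell and pancreatic acinar lists kept their direction and call less Mpo, Ang4 and Rnase1. No paired analysis was possible because the labels number the mice differently in the 2 tissues. Depth limits Prg3, Ear1, Ear2, Ear10 and Ear14 in small intestine, which rest on 1 to 34 reads each.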
